A study of Homo sapiens with 26 samples.

Results

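K562 is an immortalized chronic myeloid leukaemia line, and the list described here holds the exons whose small RNA the authors called as associated with EZH2 in these cells. Its members are all 397 rows of that list, out of 3639 rows in the 3 small RNA lists of the series, where T98G has 2573 and U87MG 669. The study sequenced RNA that co-precipitated with EZH2 in K562 and in the glioblastoma lines T98G and U87MG, and its title names mispriming of reverse transcription as a source of artifacts. The K562 data come from 3 untreated libraries, 1 each of an EZH2 immunoprecipitate, an IgG immunoprecipitate and input RNA, all from the same unmodified line grown in IMDM with serum. The small RNA lists of T98G and U87MG rest on 6 libraries each. The labels describe mechanical and detergent lysis with mild sonication and state no crosslinking for these libraries. Small RNA products of 20 to 50 bases were cut from a gel.

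EZH2 is the catalytic subunit of Polycomb repressive complex 2 (PRC2), which methylates histone H3 at lysine 27 on silenced genes. The complex also binds RNA in many cell types. RNA immunoprecipitation recovers RNA that stays with a protein through lysis and washing, and without crosslinking it can also recover RNA that met the protein in the lysate. The IgG and input libraries are there to measure RNA that is abundant or sticky. With 1 library per arm and a list without reads or counts, depth was unknown, the values that follow carry no replicate error, and the intervals given are 95% Wilson intervals that cover counting over rows only. The list holds no expression levels, so the labelled cell type could not be checked against markers.

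The first sequences shown are coding stretches of called K562 exons that contain the opening letters of the 3′ adapter, because the study's title concerns priming at such letters. The adapter begins AGATCGG, which is general knowledge of this kind of kit and is not in the labels. A reverse transcription primer made to pair with the adapter could also pair with an RNA that carries the same letters. Capitals mark the match, and each stretch is written 5′ to 3′ on the RNA strand from the GRCh37 genome, with its position and strand.
ABCC4 (chr13:95830265-95830324, minus): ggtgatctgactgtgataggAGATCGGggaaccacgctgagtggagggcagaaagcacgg
FAM175B (chr10:126507987-126508019, plus): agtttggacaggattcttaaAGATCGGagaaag
MTMR14 (chr3:9719006-9719065, plus): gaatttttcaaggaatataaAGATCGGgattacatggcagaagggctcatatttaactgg
NKIRAS1 (chr3:23934670-23934729, minus): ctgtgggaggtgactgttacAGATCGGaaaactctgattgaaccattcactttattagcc
CDC42BPB (chr14:103410749-103410808, minus): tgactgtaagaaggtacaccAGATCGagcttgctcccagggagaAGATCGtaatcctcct
HSP90AA1 (chr14:102552330-102552389, minus): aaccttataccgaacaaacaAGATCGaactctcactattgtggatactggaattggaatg
MAPKAPK5 (chr12:112330773-112330832, plus): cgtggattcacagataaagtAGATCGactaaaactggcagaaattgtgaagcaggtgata
MARCH6 (chr5:10403522-10403581, plus): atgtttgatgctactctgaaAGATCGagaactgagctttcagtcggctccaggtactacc

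A second set shows what the list holds beside messenger RNA exons: 4 rows that are C/D box small nucleolar RNAs (snoRNAs), which guide methylation of ribosomal RNA or belong to orphan clusters. Capitals mark the last CTGA, the letters of the D box, and the first TGATG, most of the C box. CTGA is in all 4 and TGATG in SNORD114-1 and SNORD63. Of the 64 K562 rows up to 100 bp wide, these 4 included, 35 (54.7%) hold CTGA and 12 (18.8%) hold TGATG on the RNA strand.
SNORD114-1 (chr14:101416170-101416241, plus): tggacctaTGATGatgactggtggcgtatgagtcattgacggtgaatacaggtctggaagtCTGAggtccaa
SNORD19.1 (chr3:52725394-52725469, plus): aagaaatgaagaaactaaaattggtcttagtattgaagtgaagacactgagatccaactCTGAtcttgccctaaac
SNORD63 (chr5:137896732-137896799, minus): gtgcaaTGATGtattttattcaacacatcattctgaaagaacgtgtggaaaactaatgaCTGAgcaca
SNORD99 (chr1:28905261-28905334, minus): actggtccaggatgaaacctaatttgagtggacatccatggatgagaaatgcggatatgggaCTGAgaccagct

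The third set shows exons of POTE genes, a primate family of ankyrin repeat proteins whose copies are nearly identical. The K562 list has 7 POTE rows, and 6 of them are the same 71 bp exon in different copies. Capitals mark the bases at which the 6 differ.
POTEE (chr2:132008351-132008421, plus): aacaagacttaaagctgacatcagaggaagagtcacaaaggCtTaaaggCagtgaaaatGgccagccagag
POTEF (chr2:130845640-130845710, minus): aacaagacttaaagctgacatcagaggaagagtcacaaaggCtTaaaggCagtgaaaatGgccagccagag
POTEG (chr14:19571348-19571418, plus): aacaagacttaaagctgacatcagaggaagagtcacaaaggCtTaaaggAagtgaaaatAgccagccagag
POTEH (chr22:16269873-16269943, minus): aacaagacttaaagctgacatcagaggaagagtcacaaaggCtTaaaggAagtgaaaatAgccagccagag
POTEI (chr2:131248243-131248313, minus): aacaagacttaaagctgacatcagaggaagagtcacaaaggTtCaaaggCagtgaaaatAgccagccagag
POTEM (chr14:20002225-20002295, minus): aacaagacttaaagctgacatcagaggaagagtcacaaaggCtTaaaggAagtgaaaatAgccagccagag

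The K562 rows lay mostly in protein-coding genes, and 206 of 397 were exactly 1 internal exon of the gene's main transcript. A protein-coding gene hosted 369 of 397 rows (92.9%, 90.0 to 95.1), and 357 rows (89.9%, 86.6 to 92.5) held at least 1 coding base. In 336 rows (84.6%, 80.8 to 87.8) both ends were those of 1 annotated exon, of any transcript, on the same strand. The same held for 86.5% of T98G and 90.6% of U87MG rows. All bases were coding in 202 rows (50.9%, 46.0 to 55.8), a share that was 55.7% (53.7 to 57.6) in T98G and 66.4% (62.7 to 69.8) in U87MG. A further 155 rows (39.0%) joined coding bases with untranslated bases or with bases of non-coding transcripts, and 12 rows were non-coding exons of coding genes. Non-coding genes hosted 27 rows (6.80%). They include 11 pseudogene rows (2.77%, 1.55 to 4.89), where T98G had 6.34% (5.46 to 7.34) and U87MG 3.74% (2.54 to 5.46), and 6 long non-coding RNA rows, among them GAS5, a host gene of snoRNAs, and C17orf76-AS1, both named after their values were seen. HIST1H2BJ, a histone H2B gene, was the 1 row without an annotated exon on its strand.

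Within the transcripts, most rows lay at internal exons, and the host genes had many exons. Counted in 1 main transcript per gene, 310 rows (78.1%, 73.8 to 81.9) were internal exons, 36 (9.07%, 6.62 to 12.3) last exons, 11 (2.77%, 1.55 to 4.89) first exons and 2 single exons, while 38 lay outside the main transcript. Of all 6578 exons of the host genes' main transcripts, 89.8% are internal, 5.06% last and 5.06% first. Last exons were thus a larger share of the list than of their own genes, with intervals that do not overlap (4.56 to 5.62 in the genes). The exons of the genes include the listed ones, and last exons are wide (median 1089.5 bp in the list). The other lists were similar, with last exons at 10.3% of T98G rows (9.22 to 11.6) and 7.47% of U87MG rows (5.71 to 9.72). Internal exons were 78.2% and 84.9% there. The 38 rows outside the main transcript count in the list's shares only. Each row takes the place and number of the main-transcript exon it overlaps most, and printed widths are those of the row. A row can be wider than that exon or span several. When any overlapping transcript on the same strand sufficed, of whatever gene, 85.1% of rows were internal. The median relative position was 0.510 on a scale from 0 at the first exon to 1 at the last. Host genes had a median of 16 exons, against 8 over 20176 annotated protein-coding genes. A gene with more exons has more chances to be listed, and its part in this difference was not tested. Counted per row, the median was 16 exons in K562, 19 in T98G and 23 in U87MG. Among 206 rows that are exactly 1 internal exon, 72 (28.8 to 41.7%) had a width divisible by 3, a length that keeps the reading frame when an exon is skipped, against 39.5% (38.3 to 40.8) of 5910 internal exons of the host genes.

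Exon widths ran from 46 to 7612 bp, with a median of 188 bp and quartiles of 121 and 488 bp. The 206 exact internal exons had a median of 130 bp, close to the 125 bp of all internal exons of their genes. The 51 rows over 1000 bp (12.8%) held 55.6% of the 198 kb covered. The narrowest were exons of POLR3D, a subunit of RNA polymerase III (46 bp), PRPF38A, a splicing factor (49 bp), ASAP3, an ARF GTPase activator (49 bp), CAPRIN1, a translation regulator of stress granules (53 bp), and NEDD4, a ubiquitin ligase (55 bp). The widest were MSI2, an RNA-binding protein of stem cells and leukaemia (7612 bp), NR6A1, an orphan nuclear receptor (5519 bp), TMEM164 (4544 bp), DSCR3 (4387 bp) and SLC4A7, a bicarbonate transporter (4123 bp). Of the 5 narrowest, 4 were also called in T98G or U87MG and the 49 bp ASAP3 exon was not, whereas none of the 5 widest was.

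**Figure D1:**
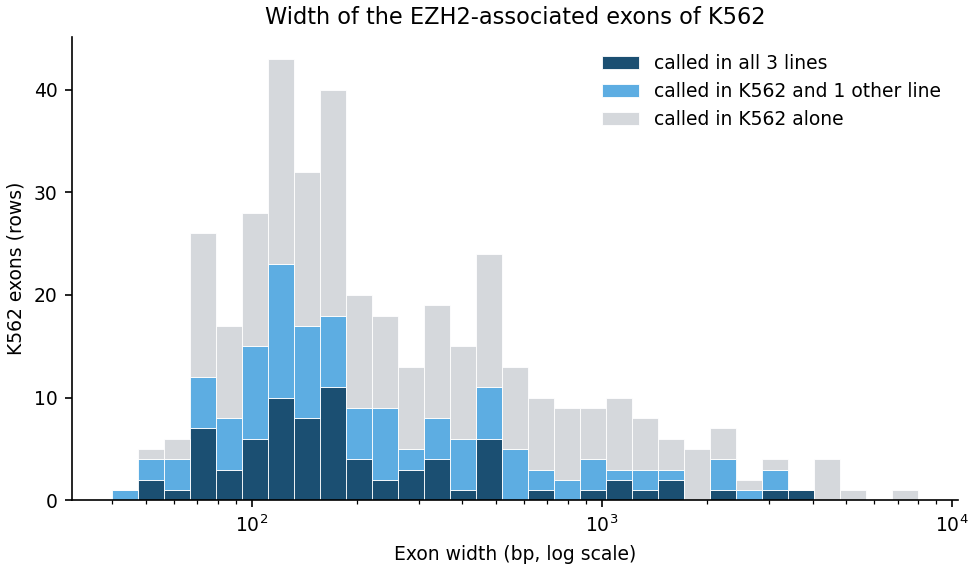
Number of K562 exons (rows, y axis) by exon width (bp, log x axis), stacked by whether the same exon was also called in both glioblastoma lines, in 1 of them or in neither. Most rows lie between 100 and 500 bp, with a tail to 7612 bp in which the widest rows were called in K562 alone.

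The rows spread over 23 chromosomes, with 62 on chromosome 1, 28 on chromosome 2, 25 on chromosome 17 and 16 on the X chromosome. Strands were nearly balanced, with 189 rows on plus and 208 on minus (52.4%, 47.5 to 57.3). The list names 384 gene symbols, and 363 of them have a single row. Only 21 genes have several, and 5 have 3 rows, namely BRWD1, FLNA, GPR98, MACF1 and UBR4. The other 16 have 2, among them CCNL1, a cyclin of splicing control, DDOST of protein glycosylation, the chaperone HSP90AA1, the isoleucyl-tRNA synthetase IARS, the cohesin regulator PDS5A, the splicing helicase SNRNP200, the cytokine TGFB1 and the ubiquitin-conjugating enzyme UBE2Z. RPL23A, a ribosomal protein, enters this count through rows that also name its intronic snoRNAs.

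In UBR4, BRWD1 and MACF1 the 3 listed rows differed in how widely they were called, and in FLNA and GPR98 they did not. UBR4, a giant ubiquitin ligase of the N-degron pathway, was listed with exons 4, 64 and 95 of 106. Exons 64 (chr1:19452940-19453149, 210 bp) and 95 (chr1:19420443-19420633, 191 bp) were called in all 3 lines and exon 4 (chr1:19525293-19525422, 130 bp) in K562 alone. BRWD1, a bromodomain protein that reads acetylated chromatin, had exon 13 of 41 (chr21:40646300-40646398) in all 3 lines, exon 6 in K562 and T98G and exon 11 in K562 alone, although the 3 exons are 99, 99 and 101 bp wide. MACF1, which links actin to microtubules, had exons 49 and 73 of 101 in all 3 lines. A 995 bp row that overlaps its exon 52 and holds 118 coding bases was called in K562 alone. All 3 rows of FLNA, the actin crosslinker filamin A, were called in K562 alone, as were all 3 of GPR98, an adhesion receptor. The GPR98 rows are exons 15, 29 and 57 of 90. The FLNA rows lie at exons 5, 27 and 38 of 48, and the row at exon 38 overlaps 3 main-transcript exons. Of all 47 rows of genes with several rows, 15 (31.9%, 20.4 to 46.2) were called elsewhere.

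Of the K562 exons, 45.8% recurred in another line, and whether they did went with the kind of exon. The same exon was called in T98G for 181 rows and in U87MG for 79, and 78 were in both, which left 215 rows in K562 alone. The 181 rows are 45.6% of the K562 list and 7.03% of the T98G list, and the 79 rows are 19.9% of the K562 list and 11.8% of the U87MG list. Every shared row had identical coordinates in both lists. The share in either line (182 of 397 rows, 41.0 to 50.8) was 57.9% (51.0 to 64.5) for fully coding rows and 34.8% (27.8 to 42.6) for partly coding rows, intervals that do not overlap. Internal exons were shared in 157 of 310 rows (50.6%, 45.1 to 56.2), last exons in 12 of 36 (33.3%, 20.2 to 49.7) and first exons in 1 of 11 (9.09%, 1.62 to 37.7). That first exon belongs to AGAP3, an ARF GTPase activator, and was called in all 3 lines (chr7:150783829-150784291, 463 bp).

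Width and base composition differed somewhat between shared and unshared rows. By width, 34 of 64 rows up to 100 bp (53.1%), 49 of 90 over 100 and up to 150 bp (54.4%), 23 of 53 over 150 and up to 200 bp (43.4%), 43 of 94 over 200 and up to 500 bp (45.7%), 14 of 45 over 500 and up to 1000 bp (31.1%) and 19 of 51 over 1000 bp (37.3%, 25.3 to 51.0) were shared, with no steady fall. Shared rows had a median width of 168 bp, a median GC content of 42.7% and 19 exons in the main transcript, and rows of K562 alone had 227 bp, 47.3% and 14. At the level of genes, 217 of 384 host symbols (56.5%, 51.5 to 61.4) were also in the T98G list and 102 (26.6%, 22.4 to 31.2) in the U87MG list. Of the 215 rows called in K562 alone, 54 (25.1%) belonged to a gene that T98G or U87MG listed with a different exon. Whether a row missing from another list was unbound, unexpressed or too shallowly sequenced there cannot be told apart.

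**Figure D2:**
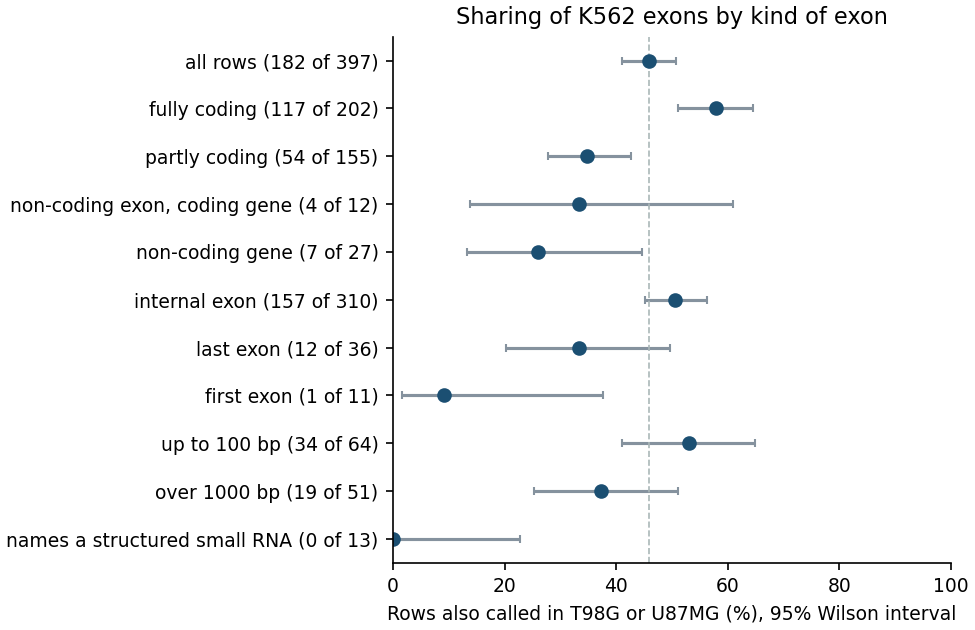
Share of K562 rows that were also called in T98G or U87MG (x axis, percent, points) with 95% Wilson intervals (bars), for all rows (dashed line, 45.8%) and by kind of exon, with counts beside each name. Fully coding rows lie at 57.9%, partly coding rows at 34.8%, and none of 13 rows that name a structured small RNA was shared.

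Structured small RNAs were a larger part of the K562 list than of the others. Rows that name a snoRNA, microRNA, Y RNA, 7SK or 7SL gene numbered 13 of 397 (3.27%, 1.92 to 5.52), against 7 of 2573 in T98G (0.272%) and 2 of 669 in U87MG (0.299%). This class was defined after the names had been seen, so no test was made. None of the 13 was called in another line, which allows a share of up to 22.8% by the Wilson interval. In 10 K562 rows the small RNA was the only name: the C/D box snoRNAs SNORD114-1, SNORD19.1, SNORD63 and SNORD99 printed above, the H/ACA box snoRNA SNORA80 (136 bp), MIR720 (110 bp), RN7SKP91, a 7SK pseudogene (288 bp), RN7SL401P, a 7SL pseudogene (295 bp), and the Y RNA copies Y_RNA.205 (112 bp) and Y_RNA.782 (111 bp). The other 3 rows join such a gene to a host exon: RPL23A with SNORD42A and SNORD4B (chr17:27050318-27050818), RPL23A with SNORD42B (chr17:27047568-27048279) and FAM172A with MIR2277 (chr5:92953775-92956835). SNORD114-1 belongs to an imprinted cluster on chromosome 14. RNA of the Y RNA, 7SK and 7SL families has many near copies in the genome, so the assignment to these loci is uncertain.

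Near-identical copies touched the POTE rows most. The 6 exons of 71 bp printed above are only 3 different sequences: POTEE and POTEF are identical, POTEG, POTEH and POTEM are identical, and any of the 15 pairs differs by at most 3 bases. The last POTE row is a 115 bp exon of POTEKP, a pseudogene. No POTE row was called in T98G or U87MG. Reads of this length cannot separate such copies except across the differing bases, so the 6 rows cannot be taken as 6 separate transcripts, and the list does not say how reads with several positions were treated. Over the whole list, 12 rows (3.02%, 1.74 to 5.21) have a sequence that occurs in full at another place on the GRCh37 chromosomes. The 6 POTE rows are among them. The others are FAM21A of endosomal sorting, METTL15, a mitochondrial ribosomal RNA methyltransferase, the pseudogene PI4KAP2 and RP11-313P13.4, RP11-345J4.8 and RP11-396K3.1. RP11-313P13.4 has 6 copies, the most of any row. Only exact copies of whole rows were searched for, so near copies of other rows are not counted.

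The host genes were next grouped by function with 14 symbol rules, which took in 146 of 384 symbols (38.0%). The rules match spelling and therefore also catch some names of other function, which are pointed out where they occur. Group sizes are counts of named genes, and no group was tested against the rest. Each share of rows called elsewhere is to be read beside the 45.8% of all rows, which include the group's own. That value lies within the interval of every group except chromatin regulators, whose interval begins at 46.8%. This group has 12 rows, 3 of them in BRWD1, and the intervals make no allowance for reading 14 groups together.

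Chromatin regulators had 10 host genes (2.60% of symbols, against 3.91% in T98G and 5.54% in U87MG), and 9 of their 12 rows were also called elsewhere (75.0%, 46.8 to 91.1), against 45.8% of all rows. Exons called in all 3 lines belonged to BRD3, a reader of acetylated histones (its last exon, 12 of 12, 3401 bp, chr9:136895427-136898827), BRWD1, NCOR1, a corepressor that brings in histone deacetylases (exon 30 of 46, chr17:15974723-15974979, 257 bp), and PHF2, a histone demethylase (exon 15 of 22, chr9:96427968-96428146, 179 bp). ARID4B of the SIN3 deacetylase complex (exon 23 of 24), PHF21A of the LSD1 complex (a 57 bp non-coding exon), SMARCA2, the BRM ATPase of the SWI/SNF complex (exon 3 of 34), and EZH2 itself were called in T98G too. The Polycomb protein PHC3, the histone chaperones ASF1B and NASP, the histone reader ZMYND8 and the methyltransferase SMYD3 were also hosts but fell outside the rule, and are named after their values were seen.

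The EZH2 row is exon 9 of 20, 92 bp on the minus strand at chr7:148516688-148516779, called in K562 and T98G and not in U87MG. It is printed because the precipitated protein's own messenger RNA was in the list.
EZH2 (chr7:148516688-148516779, minus): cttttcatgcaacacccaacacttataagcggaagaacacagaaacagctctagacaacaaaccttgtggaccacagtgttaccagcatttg
The exon has a GC content of 43.5% and 0 matches to AGAT. Read as the exon middle minus the peak middle, the T98G distance places the peak middle 14 bases from its 5′ end, and with the other sign it would be 78.

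The ubiquitin system had 18 host genes (4.69% of symbols, against 4.59% in T98G and 4.19% in U87MG). Of their 21 rows, 12 were called elsewhere (57.1%, 36.5 to 75.5), against 45.8% of all rows. MARCH6, a ligase of the endoplasmic reticulum (exon 15 of 26, 135 bp), NEDD4 (exon 16 of 29), UBA6, an activating enzyme (exon 19 of 33, 182 bp), UBR4 and USP24, a deubiquitinase (exon 12 of 68, 104 bp), had exons called in all 3 lines. HERC1 (exon 13 of 78) and PSMA7, a subunit of the proteasome core (exon 2 of 7), were shared with T98G. Splicing and translation was the largest group, with 22 host genes (5.73% of symbols, against 7.04% in T98G and 5.70% in U87MG). Of its 25 rows, 9 (36.0%, 20.2 to 55.5) were called elsewhere. Its exons in all 3 lines belonged to HNRNPK, an RNA-binding protein (exon 4 of 17, 98 bp), IARS (exon 11 of 34) and PABPC4, which binds poly(A) tails (exon 2 of 16). Also in all 3 lines were SNRNP200 (exon 26 of 45) and SF3B1, a core subunit of the U2 particle (a 326 bp row at exon 8 of 25). The second IARS exon (31) and the second SNRNP200 exon (38) were called in K562 alone. DDX20, EIF5B and PRPF38A had exons shared with T98G. This group includes RPS23P8, a processed pseudogene, and RPSAP58, which has a pseudogene's name and is protein-coding in the annotation used here. Both resemble ribosomal protein genes, so their assignment is uncertain.

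The cell cycle rule took in 15 genes, or 3.91% of K562 symbols, against 1.91% in T98G and 2.68% in U87MG. Of their 17 rows, 10 were called elsewhere (58.8%, 36.0 to 78.4). CENPA, the histone variant that marks centromeres (exon 2 of 5, 110 bp), KIF11, the motor that separates spindle poles (exon 2 of 22, 133 bp), STAG2, a cohesin subunit (exon 33 of 35, 232 bp), and the cyclin CCNY (exon 8 of 10) were shared with T98G. PDS5A had exon 8 of 33 in all 3 lines and exon 28 in K562 alone. CDC42BPA, CDC42BPB, CDC42SE2 and CDK5RAP3 entered this group by spelling, and CCNL1 is a cyclin of splicing control. Such names were not removed from the shares of any line, so those shares do not count cell division genes alone. DNA repair and replication had 6 genes (1.56% of symbols, against 1.37% in T98G and 2.52% in U87MG). Of their 6 rows, 5 were called elsewhere (83.3%, 43.6 to 97.0). ATM, the kinase that signals double-strand breaks (exon 47 of 63, 168 bp), MCM7 of the replicative helicase (exon 8 of 15, 115 bp), POLA2 (exon 7 of 18) and POLK (exon 11 of 15) were in all 3 lines. POLA1, the catalytic subunit of polymerase alpha (exon 32 of 37, 175 bp), was in K562 alone, and MCM3AP, an mRNA export factor, matched by spelling.

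Trafficking and small GTPase genes had 18 hosts (4.69% of symbols, against 5.28% in T98G and 8.22% in U87MG) and 12 of 19 rows shared (63.2%, 41.0 to 80.9). Exons in all 3 lines belonged to AGAP3, ASAP3 (exon 20 of 25), DOCK11 (exon 10 of 53), the importin IPO7 (exon 16 of 25) and the nucleoporin NUP98 (exon 20 of 33). SEC31A of the COPII coat (exon 18 of 27), VPS39 (exon 14 of 25) and VPS54 (exon 14 of 23) had such exons too. Kinases and phosphatases had 13 hosts and 9 of 13 rows shared (69.2%, 42.4 to 87.3). HIPK1, CDC42BPA, CDC42BPB, MAPKAPK5, the lipid phosphatase MTMR14 (exon 8 of 19, 71 bp) and the receptor phosphatase PTPRJ (exon 11 of 25) were in all 3 lines. PPP3R1, the regulatory subunit of calcineurin, and SOS1, which activates RAS, were shared with T98G, and PI4KAP2 in this group is a pseudogene. Motor, cilium and centrosome genes had 6 of 8 rows shared (75.0%, 40.9 to 92.9). DYNC1H1, the heavy chain of cytoplasmic dynein (exon 49 of 78, 174 bp), and CEP170 were in all 3 lines, KIF5B and IFT140 in K562 and T98G, and PCMTD2 matched by spelling. Of the cytoskeletal linkers, DST (exon 78 of 104) and VCL (exon 2 of 22) were in all 3 lines with MACF1, while FLNA and IQGAP3 (exon 10 of 38) were in K562 alone. MAP2K1, a kinase, matched this rule by spelling.

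Transporters and ATPases made up 4.69% of K562 symbols (18 genes), 2.30% in T98G and 2.01% in U87MG, and 5 of their 19 rows (26.3%, 11.8 to 48.8) were called elsewhere, an interval that includes the 45.8% of all rows. ABCC4, an efflux pump (exon 12 of 31, 95 bp), SLC7A11, the cystine transporter (exon 2 of 12, 127 bp), and TRPM7, a channel with a kinase domain (exon 38 of 39), were shared with T98G. ABCA2 (last exon, 49 of 49, 731 bp), ATP5B of ATP synthase (exon 3 of 10) and ATP6AP1 of the vacuolar proton pump (exon 7 of 10) were in K562 alone. TMEM164 is in this group by spelling. Matrix, adhesion and receptor genes had 2 of 8 rows shared (25.0%, 7.15 to 59.1). The shedding protease ADAM17 (exon 6 of 19) and CD44 (a 946 bp row outside the main transcript) were shared with T98G, and ITGB1, TGFB1 (exons 2 and 6 of 7) and TGFBR2 (exon 4 of 7, 800 bp) were not. BMP2K in this group is a kinase matched by spelling.

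**Figure D3:**
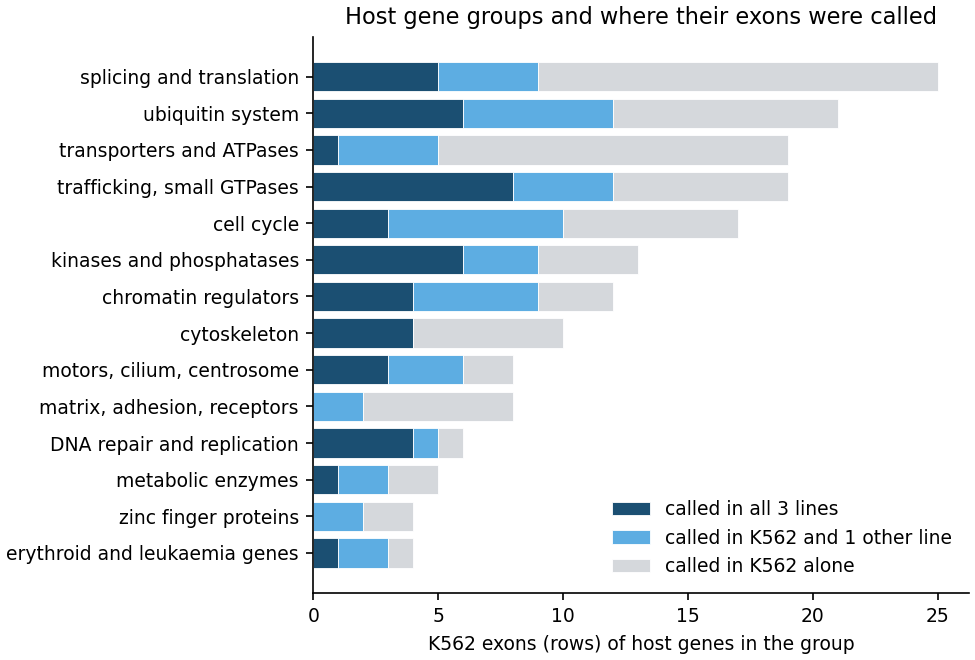
Number of K562 exons (rows, x axis) hosted by each of 14 gene groups (y axis), split by whether the exon was called in all 3 lines, in K562 and 1 other line, or in K562 alone. Splicing and translation has the longest bar (25 rows), and 14 of 19 transporter rows and 7 of 19 trafficking rows are K562 alone, where the whole list has 215 of 397. A gene can be in 2 groups.

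The smaller groups complete the list. Metabolic enzymes had 5 genes (1.30% of symbols, against 1.52% in T98G and 1.85% in U87MG). GFPT1, which opens the hexosamine pathway (exon 11 of 20), was in all 3 lines, and ACSL3 and SPTLC1 were in K562 and T98G. The nucleotide synthesis enzymes GART and IMPDH2 were in K562 alone. The zinc finger rule took in 4 genes (1.04% of symbols, against 1.32% in T98G and 1.17% in U87MG). Of these, ZNF451 (1604 bp) and ZNF638 (955 bp) were shared with T98G, and ZNF75A and ZNF767 were in K562 alone. ZNF767 is annotated as a long non-coding RNA and matched by name. From a list of erythroid and leukaemia genes, 4 were hosts: NUP98, a recurrent fusion partner in leukaemia, with a 1176 bp row in all 3 lines, STAG2 and EZH2 in K562 and T98G, and TFRC, the transferrin receptor by which erythroid cells take up iron, in K562 alone (exon 9 of 19, chr3:195794389-195794528, 140 bp). These 4 are 1.04% of K562 symbols, and the same list gave 0.733% in T98G (15 genes) and 0.839% in U87MG (5 genes). TFRC is also among the full-length RNA targets of T98G and the genes of the U87MG siRNA table, both described below.

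Over the whole list, adapter-like letters were more frequent on the RNA strand than on the opposite strand, which has the same width and GC content. AGAT was in 289 of 397 rows on the RNA strand (72.8%, 68.2 to 76.9) and in 228 on the opposite strand (57.4%, 52.5 to 62.2). AGATC, which contains it, was in 155 rows against 101. AGATCG was in 31 rows (7.81%, 5.56 to 10.9) against 5 (1.26%, 0.539 to 2.91), or 0.177 against 0.0303 matches per kb, and AGATCGG in 8 rows against 2. In fully coding rows AGATCG was in 10 of 202 (4.95%, 2.71 to 8.87) and on the opposite strand in 0, which allows up to 1.87%.

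For AGAT and AGATC the strand difference was larger in the values of shared rows. In shared rows 42.3% held AGATC on the RNA strand (35.4 to 49.6) against 20.3% on the other (15.1 to 26.8). AGAT was on 75.3% and 53.3%, or 6.47 and 4.28 AGAT per kb. In rows of K562 alone the intervals of both strands overlapped, with AGATC on 36.3% (30.1 to 42.9) and 29.8% (24.1 to 36.2) and AGAT on 70.7% (64.3 to 76.4) and 60.9% (54.3 to 67.2), or 4.10 and 3.73 AGAT per kb. AGATCGG did not follow this order. It was in 3 shared rows on the RNA strand and 1 on the other (1.65% and 0.549%). In rows of K562 alone the counts were 5 and 1 (2.33% and 0.465%). The difference between the 2 sets of rows was not tested.

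The letters are also unevenly placed between strands in exons at large, which sets the scale for these counts. In all 5910 internal exons of the host genes, AGAT was on the RNA strand of 52.7% (51.4 to 53.9) and on the opposite strand of 41.5%, and AGATCG on 2.12% (1.78 to 2.51) and 1.02% (0.790 to 1.30). In the 206 called rows that are exactly 1 internal exon, AGAT was on 63.6% (56.8 to 69.9) and 41.7%, and AGATCG on 5.34% (3.01 to 9.31) and 0%, the last allowing up to 1.83%. The intervals of called internal exons and of all internal exons did not overlap on the RNA strand for either motif, and they overlapped on the opposite strand for both. The host exons include the called ones, and most called exons carry no 6-base match.

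**Figure D4:**
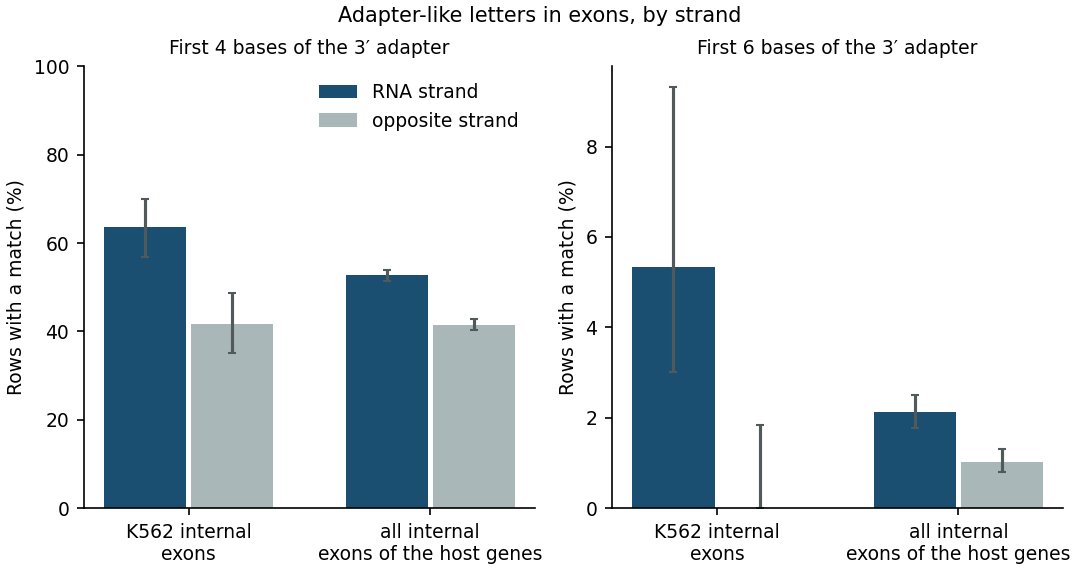
Share of exons (y axis, percent, bars from 0, with 95% Wilson intervals) that hold the first 4 (left) or first 6 (right) bases of the 3′ adapter on the RNA strand or the opposite strand, for 206 called internal K562 exons and all 5910 internal exons of the host genes. The RNA-strand bars of the called exons stand at 63.6% and 5.34%, above 52.7% and 2.12% for the host genes.

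The 8 exons with AGATCGG on the RNA strand belong to ABCC4, FAM175B, HAPLN3, MTMR14, NKIRAS1, NR6A1, ZC3HAV1 and ZNF75A. In the exon of ABCC4 the match begins 42 bases from the 5′ end and 47 bases follow it, and in MTMR14 it begins at base 26 with 39 bases after it. In FAM175B it begins at base 55 of 67 and 6 bases follow. NKIRAS1, an inhibitor of NF-kappa-B signalling, carries it at base 120 of a 1678 bp row. AGATCG occurred in 17 of 182 shared rows (9.34%, 5.91 to 14.4) and in 14 of 215 rows of K562 alone (6.51%, 3.92 to 10.6), with overlapping intervals. On the opposite strand it was in 1 and 4 of these rows. In T98G, AGATCG was in 10.6% of rows (9.52 to 11.9) on the RNA strand and in U87MG in 10.8% (8.63 to 13.3), with 0.183 and 0.255 matches per kb.

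For the exons that K562 shares with T98G, the authors' T98G list gives a distance per exon that was read as locating a T98G peak. These positions describe T98G libraries, not K562. Of 181 shared rows, 180 had a usable position. The peak middle lay inside the exon in 175 and outside in 5, at a median of 61 bases from the 5′ end and a median relative position of 0.362 (quartiles 0.174 and 0.630). With the other sign of the distance, which no source states, the median would be 98 bases and 0.638. Counting the first base after the middle as 1, AGAT began 11 to 15 bases downstream in 60 of 180 peaks (33.3%, 26.9 to 40.5) and 31 to 35 bases downstream in 4 (2.22%, 0.867 to 5.57). In the other T98G rows the shares were 25.2% (23.4 to 27.0) and 3.50%. AGATC followed at 11 to 15 bases in 32 (17.8%), AGATCG in 10 (5.56%) and AGATCGG in 4 (2.22%). The sign of the distance was settled with these same letters. Neither their share nor its contrast with 31 to 35 bases is therefore an independent check of the sign or of the peak positions. Both offset ranges are settings of this count, and no source for them is given. The windows below show coding examples, from 15 bases before the peak middle to 35 after it, with the match in capitals.
ABCC4 (chr13:95830280-95830329, minus): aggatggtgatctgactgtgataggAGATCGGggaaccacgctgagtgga
NFATC3 (chr16:68225597-68225646, plus): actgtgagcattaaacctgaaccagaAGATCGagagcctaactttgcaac
PHF2 (chr9:96428064-96428113, plus): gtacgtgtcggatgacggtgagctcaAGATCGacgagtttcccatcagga
SF3B1 (chr2:198273238-198273287, minus): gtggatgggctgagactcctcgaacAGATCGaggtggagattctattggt
CTNNB1 (chr3:41274838-41274887, plus): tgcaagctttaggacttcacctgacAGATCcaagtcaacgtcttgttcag
KIF5B (chr10:32308798-32308847, minus): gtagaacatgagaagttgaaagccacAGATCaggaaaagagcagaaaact
The ABCC4 peak of T98G lies 11 bases before the AGATCGG that the K562 exon carries. In PHF2 and NFATC3 the match begins 12 bases after the middle, and in SF3B1 and CTNNB1 11. The EZH2 exon has no AGAT at all.

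The K562 exons were then placed beside the other lists of the series. Full-length RNA targets of T98G contained 50 of the 397 rows (12.6%), against 12% of T98G and 16.7% of U87MG rows, and the share was 11% of shared rows and 14.0% of rows in K562 alone. Hosts early in symbol order include ABCA2, AGAP3, ATM, ATP5B, ATP6AP1, CNPY2, CTNNB1, CTSD and DDB1. FLNA and UBR4 are among these targets with all 3 of their rows each. A K562 exon bordered a retained intron of U87MG in 2 genes. LATS1, a kinase of the Hippo pathway, had exon 6 of 8 (chr6:149997691-149997873) next to a retained intron of 3141 bp on its upstream side, and exon 30 of NCOR1 had one of 887 bp on its downstream side. Both exons were called in all 3 lines. The intron list is named for lying near EZH2-associated small RNA of U87MG, so the call in that line is part of how these introns were chosen.

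Among genes that changed in U87MG cells treated with siRNA against EZH2, the K562 host genes were more often lower than higher, if the table's direction is read as its names are ordered. The authors' deposited table lists 1342 genes at their adjusted p, of which 661 were higher under siEZH2 than under siGFP (49.3%), with 2 libraries per arm. It lists 53 of the 384 K562 host symbols (13.8%), of which 16 were higher (30.2%, 19.5 to 43.5) and 37 lower. In the authors' deposited table the median log2 fold change of the higher host genes was 0.87, and of the lower ones -0.74, where all listed genes had 1.01 and -0.74. At an absolute log2 fold change of at least 1, 5 of 13 host genes in the authors' deposited table were higher, against 346 of all 468. The direction rests on the order of the names in the table, and EZH2 itself has no row there to check it. Turned around, 37 of the 53 would be higher and 16 lower. These values describe messenger RNA levels in U87MG and not in K562, and the part of transcript length or level in this split was not tested.

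Read in that direction, the highest host gene in the authors' deposited table was CTSH, a lysosomal protease, with a log2 fold change of 1.47. KIF11 (1.34) and CIT, a kinase of cytokinesis (1.20), followed, both in cell division, then GLUL, glutamine synthetase (1.09), and ARHGAP11B (1.01), whose reads can be confused with those of its parent gene, in the authors' deposited table. The lowest value in the authors' deposited table was that of MBOAT7, which remodels phosphatidylinositol (-1.47). HIST1H2BJ (-1.21), BTAF1, which removes TBP from promoters (-1.19), PANK3 of coenzyme A synthesis (-1.10) and TGFBR2 (-1.10) were next in the authors' deposited table. Of these 10 genes, KIF11 had its K562 exon also in T98G, BTAF1 and PANK3 in both other lines, and the other 7 in K562 alone. In the turned direction MBOAT7 would be highest and CTSH lowest in the authors' deposited table.

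**Figure D5:**
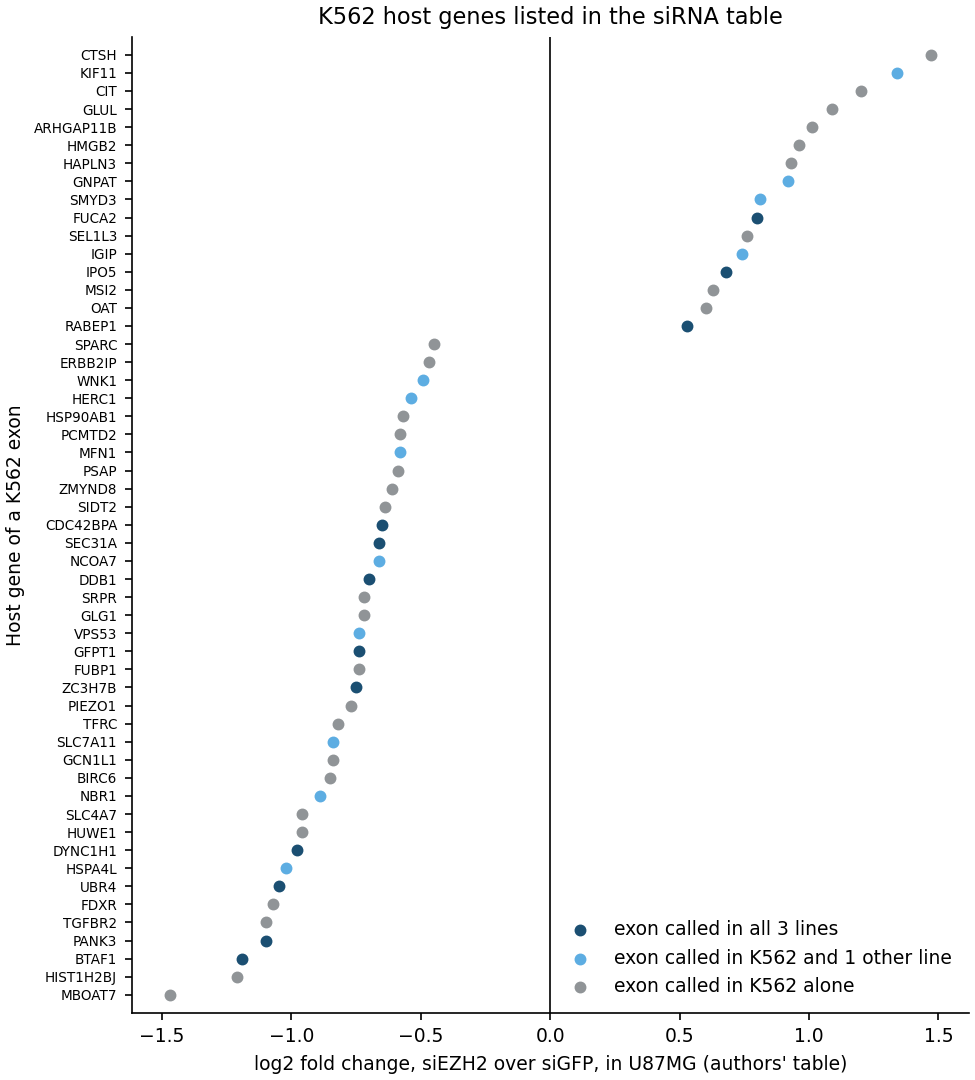
Log2 fold change under siEZH2 against siGFP in U87MG (x axis, from the authors' deposited table, without errors) for the 53 host genes of K562 exons listed there (y axis, ordered by value), coloured by where the exon was called. The 16 genes to the right of 0 run up to 1.47 (CTSH) and the 37 to the left down to -1.47 (MBOAT7).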

How the data were processed

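Per the labels' protocols, the authors made K562 small RNA libraries with NEB's kit, trimmed adapters with cutadapt and used BWA (hg19) for alignment, bedtools for exon counts and DESeq2 for the exon calls. CASAVA 1.8 is named in the submitters' processing notes. Thresholds, the exon annotation and the treatment of reads with several positions are not given in the sources used here. The deposited lists hold positions and names, with the authors' log2 fold change per gene in the siRNA table and a score per retained intron, not printed here, whose making no source states. Each record's symbol was the text before its transcript and exon number. Rows were compared with GENCODE release 44 on GRCh37, the assembly behind hg19, and 1 shared base on the same strand counted as overlap. The main transcript was MANE Select, else the longest coding one. Python 3.11.15 with pandas 2.3.3 and pysam 0.24.0 was used, and the arithmetic was tested on simulated data. No test was run, because each K562 arm has 1 library. Members, gene lists and the naming rule (genes with several rows, up to 8 per group, widest and narrowest rows, longest adapter matches, extreme siRNA values) were chosen with earlier results of these data known. The groups came from sample titles. Some named genes are not reported here.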

Additional observations from a re-analysis of the deposited data

How the results depend on the processing

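No paired analysis was possible because K562 has 1 library per arm and the deposited lists hold no values for single libraries. For the same reason no replicate could be left out. Of 27 alternative settings of the main counts and shares, 18 stayed within the interval of the value or within 1.5 times a count. The share of K562 rows at annotated exon ends was 99.2% when either end sufficed and 97.7% with 50% reciprocal overlap (84.6% for both ends). Coding rows were 50.9% when all bases had to be coding (89.9% for any base). Internal rows were 78.1% in the longest coding transcript and 78.1% in the MANE Select transcript, an alternative chosen after seeing the data (85.1% in any transcript). The median width was 167.5 bp over exact exons (188 bp over all rows). The share with AGATCG (7.81%) became 39.0% for AGATC and 2.02% for AGATCGG, as a shorter or longer motif must. With the other sign of the T98G distance, AGAT followed 3.89% of peaks in place of 33.3%. The sign in use was settled with these same letters, so the contrast is not independent of that choice. Matching siRNA genes by position, also chosen after seeing the data, gave 29.6% higher against 30.2%. Counting genes with a shared exon only lowered 7 of 14 group counts by over 1.5 times. Unknown depth limits every comparison between lines.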
